A study of Homo sapiens with 4 samples.

Results

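Replication-dependent histone genes encode most of the H1 linker histones and of the H2A, H2B, H3 and H4 core histones with which a dividing cell packages its new DNA. They were examined in HCE cells, which the labels give as a line of undifferentiated cells, in a series on KLF4 and KLF7 in the corneal epithelium. The members were all genes whose only platform symbol was one of H1-1 to H1-5 or began with H2AC, H2BC, H3C or H4C and a number. This gave 57 of the 18417 genes measured: 5 of class H1, 14 of H2A, 17 of H2B, 8 of H3 and 13 of H4. The siKLF7 group was 2 arrays of cells transfected with a pool of siRNAs against KLF7, a zinc finger transcription factor. The scramble control group was 2 arrays of cells transfected with a pool of non-targeting siRNAs. Cells of both groups were plated at 100000 per well, received siRNA at 20 nM and were collected after 48 hours. No label states that the 2 arrays of a group stand for cells grown apart, so a p-value here reflects the spread between arrays, possibly a technical one.

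Transcription of these genes rises as cells enter S phase, through the coactivator NPAT, a target of cyclin E and CDK2. Their mRNAs end in a stem-loop in place of a poly(A) tail. The stem-loop is bound by SLBP, and the U7 small nuclear ribonucleoprotein directs the cut that forms the 3′ end. The supply of histone mRNA is thereby tied to DNA synthesis, and the mRNAs decay when replication stops. Each class has many near-identical copies in a few chromosomal clusters. Probes on an array can therefore read more than 1 copy, and a difference given for a gene below is that of its probe set.

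Of the 57 genes, 51 had a promoter in the RefSeq table for GRCh38.p14, and the 250 bases before the annotated start were searched on both strands. The CCAAT box (CCAAT), bound by NF-Y, was in 84.3% of the 51 promoters and in 33% of all 27305 promoters of the same length. It was in each of the 40 promoters of classes H1, H2A, H2B and H3 and in 3 of 11 H4 promoters. The octamer ATTTGCAT, the site of the POU factor POU2F1, was in 13 of 16 H2B and 10 of 13 H2A promoters, in 0 of the other classes and in 1.66% of all promoters. The H1 box AAACACA was in 5 of 5 H1 promoters, in 0 of the other members and in 4.95% of all promoters. TATAAA was in 66.7% of the members and 11.1% of all promoters. The letters of boxes that KLF and SP factors can bind were less frequent in the members: GGGCGG was in 23.5% against 42.3% of all promoters, and CACCC in 13.7% against 53.7%. Promoters of neighbouring H2A and H2B genes overlap, so these counts are not of independent sequences.

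The promoters of 5 genes are shown because the results below turn on these genes. H1-1 and H2BC7 passed the test against scramble control replicate 2, H4C8 differed most between the control arrays, and H2BC1 and H4C7 lay lower in each siKLF7 array than in each control. Each is the GRCh38.p14 sequence from RefSeq, 250 bases 5′ to 3′ up to the base before the start, with all matches to the 6 motifs in capitals. Adjacent or overlapping matches run together. H1-1 lies at chr6:26017788-26018037, minus strand. H2BC7 lies at chr6:26199266-26199515, plus strand. H2BC1 lies at chr6:25726527-25726776, plus strand, in the stretch it shares with H2AC1. H4C8 lies at chr6:26285535-26285784, minus strand. H4C7 lies at chr6:26246997-26247246, minus strand.
H1-1: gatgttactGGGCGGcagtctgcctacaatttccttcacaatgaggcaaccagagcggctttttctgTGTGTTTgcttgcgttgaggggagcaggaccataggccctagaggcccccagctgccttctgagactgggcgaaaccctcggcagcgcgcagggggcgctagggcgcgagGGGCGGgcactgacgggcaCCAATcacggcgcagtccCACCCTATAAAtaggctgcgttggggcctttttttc
H2BC7: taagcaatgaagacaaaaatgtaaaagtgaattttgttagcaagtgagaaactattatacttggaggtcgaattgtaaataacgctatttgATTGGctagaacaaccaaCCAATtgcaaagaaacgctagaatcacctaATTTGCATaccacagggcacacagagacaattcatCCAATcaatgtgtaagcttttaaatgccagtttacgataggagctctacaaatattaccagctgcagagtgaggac
H2BC1: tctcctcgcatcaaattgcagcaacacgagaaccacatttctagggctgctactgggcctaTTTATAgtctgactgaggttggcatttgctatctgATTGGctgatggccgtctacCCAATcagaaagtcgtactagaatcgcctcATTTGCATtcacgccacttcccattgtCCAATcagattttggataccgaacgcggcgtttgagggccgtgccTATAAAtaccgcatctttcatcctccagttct
H4C8: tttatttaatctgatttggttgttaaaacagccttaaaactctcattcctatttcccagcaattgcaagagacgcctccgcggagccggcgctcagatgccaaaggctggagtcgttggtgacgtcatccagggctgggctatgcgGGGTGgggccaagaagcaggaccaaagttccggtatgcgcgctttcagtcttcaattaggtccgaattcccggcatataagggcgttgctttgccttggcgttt
H4C7: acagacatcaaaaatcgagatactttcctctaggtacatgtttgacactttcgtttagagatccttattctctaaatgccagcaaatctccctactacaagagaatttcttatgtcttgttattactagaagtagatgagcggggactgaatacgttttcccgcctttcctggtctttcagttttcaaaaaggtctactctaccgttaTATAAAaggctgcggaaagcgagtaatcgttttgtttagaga
H1-1 held 2 GGGCGG boxes, 1 CACCC box, 1 CCAAT box, TATAAA and, on the other strand, 1 match to the H1 box. H2BC7 held 3 CCAAT boxes and the octamer. In H4C8 the only match was 1 CACCC box, on the other strand, and in H4C7 it was 1 TATAAA. The 16 members with GGGCGG or CACCC had a median log2 difference of 0.31 between siKLF7 and scramble control, against 0.21 for the 35 members with neither. Against scramble control replicate 2 alone these medians were 0.05 and 0.04, and against replicate 1 they were 0.31 and 0.36. The split is not separate from class: GGGCGG was in 3 of 5 H1 and 6 of 11 H4 promoters. It was in 1 of 13 H2A, 1 of 16 H2B and 1 of 6 H3 promoters. H4C14 and H4C15, with the same signal on each array, both count among the 16. A link between the boxes and the differences was not tested. A match to these letters is a description of the sequence and does not show that a factor binds there.

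Values are given as log2(signal + 16) on each array, siKLF7 replicates 1 and 2 first and scramble control replicates 1 and 2 after them, and all differences are siKLF7 minus scramble control on that scale. KLF7 itself stood at 10.56 and 10.15 in the siKLF7 arrays, against 12.19 and 11.52 in the scramble control arrays. Its difference was -1.50 (SE 0.28, limma adjusted p = 0.639), or 35.5% of the control level. An exact two-sided permutation test of 2 arrays against 2 cannot go below the p = 0.333 it gave for KLF7. Scramble control replicate 1 stood apart. It correlated across genes with the other arrays at r = 0.934 to 0.938, while the other 3 correlated with each other at 0.990 to 0.994. It was at least 2-fold below the mean of the other 3 arrays for 551 genes and at least 2-fold above it for 389. Among corneal epithelial markers, KRT5 and KRT14, keratins of basal cells, were above 13 on every array. KRT12 and KRT3, keratins of the differentiated corneal epithelium, stood at 11.26 and 11.62 and at 10.88 and 11.27 in the siKLF7 arrays. In scramble control replicate 2 they stood at 10.63 and 10.51, but in replicate 1 KRT12 stood at 6.39 and KRT3 had a signal of 0. Results are therefore given with all 4 arrays and against each scramble control alone. With 1 control array left, only the siKLF7 arrays gave a spread, with 1 residual against 74.2 or 86.2 prior degrees of freedom. The SE of a gene was thus mostly the pooled spread of genes of like level, not its own. The single control was treated as equally variable. Every adjusted p against 1 control rests on both assumptions.

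By its median, the level of the histone genes was higher in siKLF7 cells than in scramble control replicate 1 and close to the level in scramble control replicate 2. The median level of the 57 genes was 10.19 and 10.24 in the siKLF7 arrays, against 9.81 and 10.20 in scramble control replicates 1 and 2. Over all 4 arrays the median difference was 0.25, beside -0.05 for all genes, and 50 of the 57 were above 0, beside 41.8% of all genes. With limma 0 of the 57 passed, as did 0% of all genes, and 4 members had an unadjusted p under 0.05, beside 5.8% of all genes. Both siKLF7 arrays lay above both controls for 22 members, 38.6%, beside 16.3% of all genes, and below both for 3 members, beside 28.9%. The members were bright: 21 were in the brightest of 10 bins by mean level and 11 in the next, where both siKLF7 arrays lay above both controls for 24.8% and 22.4% of genes.

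Against scramble control replicate 1 alone, 30 of the 57 rose, beside 13.4% of all genes, and 1 fell, also beside 13.4%. The median difference was 0.36, beside -0.06 for all genes, and 49 of the 57 were above 0, beside 43.1% of all genes. An unadjusted p under 0.05 was given for 39 members, beside 36.2% of all genes. Against scramble control replicate 2 alone, 2 rose, beside 0.885% of all genes, and 0 fell, beside 0.69%. With that control 10 members had an unadjusted p under 0.05, beside 11.3% of all genes. The median difference was 0.06, beside -0.04 for all genes, and 33 of the 57 were above 0, beside 42.2%. Scramble control replicate 1 was the lowest of the 4 arrays for 41 members, beside 31.4% of all genes, and the highest for 2, beside 38.3%. The control arrays differed by a median of 0.27 over the members (replicate 2 minus replicate 1), beside 0.01 over all genes. The siKLF7 arrays differed by 0.01. These are signed medians, in which rises and falls cancel. The median absolute difference over the members was 0.31 between the controls and 0.17 between the siKLF7 arrays. Over all genes it was 0.20 and 0.12. By the signed medians, the controls differed from each other by about as much as the groups did. In RNA from many cells, fewer cells in S phase and less histone mRNA per cell cannot be told apart.

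Most corneal epithelial markers were lowest in the same control array, and most markers of other cell types were highest there. The summed signal of 11 corneal epithelial markers was 47632 and 50439 in siKLF7 arrays, against 31280 and 43874 in scramble control replicates 1 and 2. Of these, 10 were lowest in replicate 1, beside 31.4% of all genes, and KRT3 was at 0 there. For 12 fibroblast and keratocyte markers the sum was 3130 and 2995, against 4616 and 2629. Of the 12, 8 were highest in replicate 1, beside 38.3% of all genes. POSTN and THY1 stood at 9.44 and 9.59 there, against 5.37 and 6.99 in replicate 2. LUM was lowest in replicate 1, at 5.36, against 6.31 and 6.29 in siKLF7 arrays. Leukocyte markers summed to 1701 and 1754, against 2257 and 1904, and 7 of 9 were highest in replicate 1, beside the same 38.3%. Vascular endothelial markers summed to 1301 and 1368, against 1643 and 1500, and 6 of 8 were highest in replicate 1. All 8 lay below both controls in both siKLF7 arrays, beside 28.9% of all genes. Among dim genes that share was larger, 38.3% to 41.8% in bins 2 to 4 of 10 by mean level. Most leukocyte and endothelial markers were dim, and the brightest were CD68 and CDH5, at 10.49 and 9.56 in replicate 1. These 2 genes weigh most in the sums of their lists. The part of these differences between the control arrays in the histone values was not tested.

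**Figure D1:**
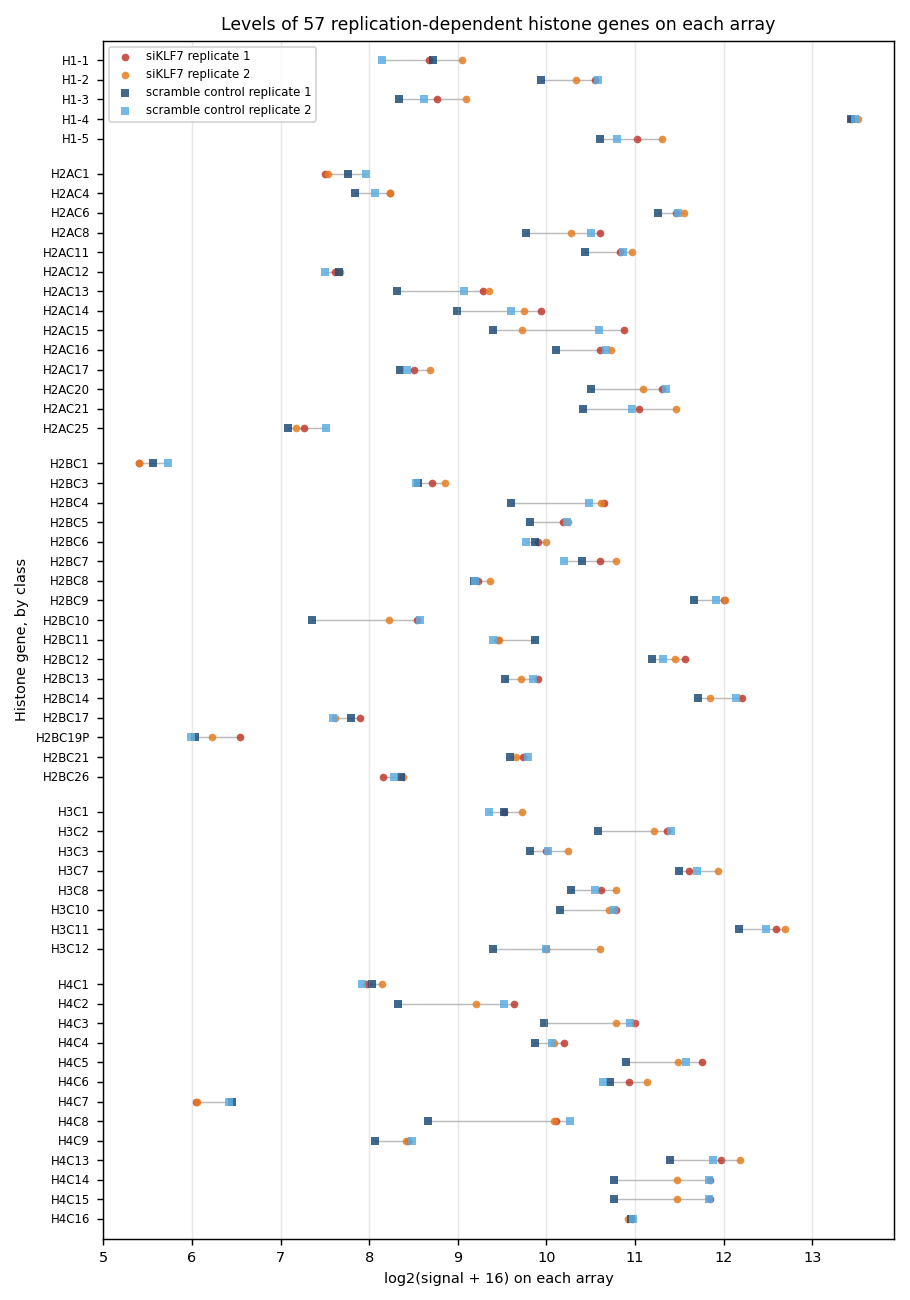
Level of each of the 57 histone genes on each array as log2(signal + 16), grouped by class, with circles for the siKLF7 arrays, squares for the scramble control arrays and a grey line over each gene's range. The dark squares of scramble control replicate 1 are the lowest point for 41 genes, and levels of different genes come from different probes and are not comparable with each other.

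The H1 class, the linker histones that bind the DNA between nucleosomes, had a median difference of 0.43 with 4 arrays, 0.31 against scramble control replicate 2 and 0.50 against replicate 1. H1-1 stood at 8.68 and 9.05 in the siKLF7 arrays, against 8.72 and 8.15 in the controls. It rose against scramble control replicate 2, by 0.71 (SE 0.17, limma adjusted p = 0.00674), but its level in replicate 1 lay between the siKLF7 arrays (difference 0.14, SE 0.17, adjusted p = 0.569). H1-5 stood at 11.02 and 11.30 in the siKLF7 arrays and 10.60 and 10.80 in the controls, with no overlap (0.46 with 4 arrays, SE 0.16, unadjusted p = 0.0389, adjusted p = 0.639). H1-3 was also without overlap, at 8.76 and 9.09 in siKLF7 and 8.34 and 8.62 in control arrays. Both rose against replicate 1, H1-5 by 0.56 (adjusted p = 0.000168) and H1-3 by 0.59 (adjusted p = 0.00401). Against replicate 2 they stood at 0.36 (SE 0.12, adjusted p = 0.148) and 0.31 (SE 0.17, adjusted p = 0.488). H1-2 stood at 10.55 and 10.33 in siKLF7 arrays, against 9.94 and 10.58 in the controls. It rose by 0.50 against replicate 1 (adjusted p = 0.00437) and stood at -0.14 against replicate 2. H1-4, a somatic linker histone, lay within 0.08 across arrays, at 13.44 and 13.52 in siKLF7 and 13.44 and 13.48 in control arrays.

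The H2A class, which pairs with H2B in the nucleosome, had a median difference of 0.27 with 4 arrays, 0.02 against scramble control replicate 2 and 0.51 against replicate 1. Against replicate 1, 8 of 14 rose, beside 13.4% of all genes. Against replicate 2, 0 of 14 rose or fell, which at 0.885% and 0.69% of all genes is no result about the class. H2AC13 stood at 9.28 and 9.35 in siKLF7 arrays, against 8.31 and 9.07 in the controls. H2AC14 stood at 9.94 and 9.75, against 8.99 and 9.60. H2AC21, of the chromosome 1 cluster, stood at 11.04 and 11.46, against 10.41 and 10.96. In these 3 genes both siKLF7 arrays were above both controls, and the gap to replicate 1 was the wider. They rose against replicate 1 by 1.01 (SE 0.16, adjusted p = 2.69e-07), 0.86 (SE 0.16, adjusted p = 5.37e-06) and 0.84 (SE 0.13, adjusted p = 5.14e-08), in the same order. Against replicate 2 they stood at 0.25 (SE 0.16), 0.25 (SE 0.15) and 0.29 (SE 0.12), and none passed.

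The other 5 H2A genes that rose against replicate 1 overlapped the controls. H2AC15 stood at 10.87 and 9.73 in siKLF7 arrays, against 9.40 and 10.59 in the controls, so the siKLF7 pair differed about as much as the control pair. It rose by 0.90 against replicate 1 and stood at -0.29 against replicate 2, with an SD of 0.81 between its siKLF7 arrays. H2AC20 stood at 11.30 and 11.09, against 10.50 and 11.35. H2AC8 stood at 10.60 and 10.28, against 9.77 and 10.50. For both, replicate 1 was the low array and replicate 2 lay at or near the siKLF7 level, with rises of 0.69 and 0.67 against replicate 1 and differences of -0.16 and -0.07 against replicate 2. H2AC16 stood at 10.61 and 10.73 in siKLF7 arrays, against 10.11 and 10.67 in the controls, and rose by 0.56 against replicate 1. H2AC11 stood at 10.83 and 10.97, against 10.44 and 10.86, and rose by 0.46. H2AC1, a testis-type H2A, was the exception in direction, at 7.50 and 7.54 in siKLF7 arrays, against 7.76 and 7.96 in the controls. Its difference of -0.34 (SE 0.13, unadjusted p = 0.0489, adjusted p = 0.639) did not pass, nor did it against either control alone. Genes of its brightness had a median difference of -0.10 in bin 4 of 10. The remaining H2A genes ranged from -0.08 for H2AC25 to 0.28 for H2AC4 with 4 arrays.

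The H2B class had the smallest median difference of the 5 classes with 4 arrays, 0.13, and stood at 0.10 against scramble control replicate 2 and 0.28 against replicate 1. H2BC7 stood at 10.60 and 10.79 in siKLF7 arrays, against 10.40 and 10.20 in the controls, without overlap. It rose against replicate 2, by 0.50 (SE 0.14, limma adjusted p = 0.0314), and stood at 0.29 against replicate 1 (SE 0.13, adjusted p = 0.097) and 0.39 with 4 arrays (SE 0.15, adjusted p = 0.639). It was with H1-1 the only member that passed against replicate 2. H2BC4 stood at 10.65 and 10.62 in siKLF7 arrays, against 9.60 and 10.48 in the controls, and H2BC10 at 8.54 and 8.22, against 7.35 and 8.57. They rose by 1.04 (SE 0.14, adjusted p = 1.5e-09) and 1.03 (SE 0.16, adjusted p = 2.33e-07) against replicate 1, and stood at 0.15 and -0.19 against replicate 2. In both genes scramble control replicate 1 was the low array.

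Smaller rises against replicate 1 were measured for 4 further H2B genes. H2BC5 stood at 10.19 and 10.24 in siKLF7 arrays, against 9.81 and 10.23 in the controls, and rose by 0.41. H2BC9 stood at 12.00 and 12.02, against 11.66 and 11.91, and rose by 0.35. H2BC14 stood at 12.21 and 11.84, against 11.71 and 12.14, and rose by 0.32. The siKLF7 arrays overlapped the controls in H2BC5 and H2BC14 but not in H2BC9. H2BC12 stood at 11.56 and 11.45, against 11.19 and 11.32, also without overlap, and rose by 0.31 (adjusted p = 0.0233). H2BC11 was the 1 member that fell against replicate 1, by 0.41 (SE 0.15, adjusted p = 0.0375), at 9.45 and 9.46 in siKLF7 arrays, against 9.87 and 9.40 in the controls. H2BC1, a testis-type H2B, stood at 5.40 and 5.40, against 5.56 and 5.73. Its difference of -0.25 (SE 0.11, adjusted p = 0.639) lay in bin 1 of brightness, where the median of all genes was -0.08. H2BC19P, a pseudogene, stood at 6.54 and 6.23, against 6.03 and 5.99, without overlap (0.37, SE 0.14, unadjusted p = 0.0476, adjusted p = 0.639). The other H2B genes ranged from -0.05 for H2BC26 to 0.24 for H2BC3 with 4 arrays.

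The H3 class forms the core tetramer with H4. All 8 of its genes were above 0 with 4 arrays, beside 41.8% of all genes, and against scramble control replicate 1, beside 43.1%. Against replicate 2, 6 of 8 were above 0, beside 42.2% of all genes. The class median was 0.29 with 4 arrays, 0.12 against replicate 2 and 0.45 against replicate 1, where 6 of 8 rose, beside 13.4% of all genes. Against replicate 2, 0 of 8 passed, again near the share of all genes. H3C12 stood at 10.00 and 10.61 in siKLF7 arrays, against 9.40 and 10.00 in the controls. H3C2 stood at 11.36 and 11.21, against 10.58 and 11.40. H3C10 stood at 10.79 and 10.71, against 10.15 and 10.76. In all 3 the control arrays were further apart than 0.5 and replicate 1 was the low array. These rose against replicate 1 by 0.91 (SE 0.16, adjusted p = 1.67e-06), 0.71 (SE 0.12, adjusted p = 8.42e-07) and 0.60 (SE 0.13, adjusted p = 0.000202), and stood at 0.31, -0.11 and -0.02 against replicate 2, in the same order. H3C11 stood at 12.59 and 12.69 in siKLF7 arrays, against 12.17 and 12.48 in the controls, and H3C8 at 10.62 and 10.79, against 10.28 and 10.55. Both were without overlap and rose against replicate 1, by 0.47 (adjusted p = 8.19e-07) and 0.42 (adjusted p = 0.0107). H3C7 stood at 11.61 and 11.94, against 11.50 and 11.70, and rose by 0.28 against replicate 1 (adjusted p = 0.0355). H3C1 and H3C3 stood at 0.19 and 0.20 with 4 arrays and did not pass in any comparison.

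The H4 class had the widest gap of the 5 classes between its medians against either control. Its median difference was 0.36 with 4 arrays and 0.69 against scramble control replicate 1, but -0.05 against replicate 2. H4C14 and H4C15 are 1 measurement and enter these medians 2 times. Counted once, the H4 median against replicate 1 would lie midway between H4C9, at 0.36, and H4C13, at 0.69. H4C8 stood at 10.11 and 10.09 in siKLF7 arrays, against 8.66 and 10.27 in the controls. It rose by 1.44 against replicate 1 (SE 0.15, adjusted p = 3.79e-13), the largest rise of the 57 genes in that comparison, and stood at -0.18 against replicate 2 (SE 0.14, adjusted p = 0.669). H4C2 stood at 9.63 and 9.21, against 8.33 and 9.52. H4C3 had linear signals of 2029 and 1760, against 989 and 1955. They rose by 1.09 and 0.92 against replicate 1 and stood at -0.10 and -0.05 against replicate 2. In each of these genes replicate 1 was the only array well below the others.

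H4C14 and H4C15, neighbouring copies on chromosome 1, had the same signal to every digit on each array and so are 1 measurement. The counts and medians over 57 genes, over the H4 class and over the chromosome 1 block hold it 2 times. Counted once, 49 of 56 genes were above 0 with 4 arrays, 29 rose against replicate 1 and replicate 1 was the lowest array for 40. They stood at 11.84 and 11.47 in siKLF7 arrays, against 10.76 and 11.83 in the controls, and rose by 0.89 against replicate 1 (SE 0.11, adjusted p = 3.38e-10). H4C5 stood at 11.75 and 11.48, against 10.90 and 11.57, and H4C13 at 11.97 and 12.18, against 11.39 and 11.88. They rose by 0.72 and 0.69 against replicate 1, and H4C13 alone of the H4 genes that rose there was without overlap. H4C6 stood at 10.93 and 11.13 in siKLF7 arrays, against 10.72 and 10.64 in the controls, without overlap, and differed about equally from either control (0.30 and 0.39, adjusted p = 0.0565 and 0.111). H4C7, which encodes a divergent H4 protein, was below both controls, at 6.05 and 6.06 in siKLF7 arrays, against 6.45 and 6.42 in the controls. Its difference of -0.38 (SE 0.10) had the smallest unadjusted p of the members with 4 arrays, 0.0127, and an adjusted p of 0.639. It was a dim gene, in bin 2 of 10, where the median of all genes was -0.12 and 41.4% lay below both controls. H4C16, alone on chromosome 12, stood at -0.02 with 4 arrays. H4C1, H4C4 and H4C9 ranged from 0.08 to 0.18.

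**Figure D2:**
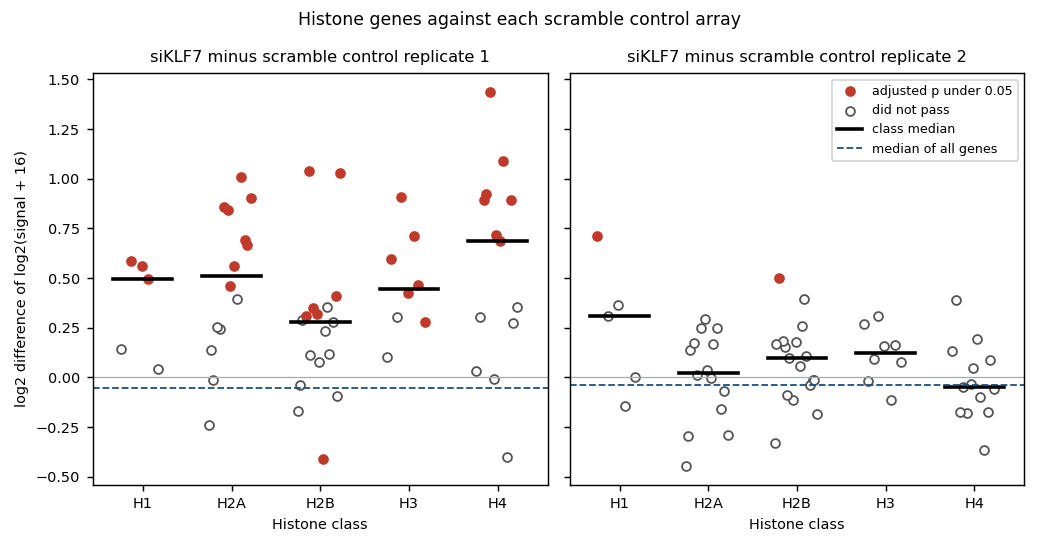
Log2 difference of each histone gene between the mean of the siKLF7 arrays and scramble control replicate 1 (left) or replicate 2 (right), by class, with filled points for genes past a limma adjusted p of 0.05, bars for class medians and a dashed line for the median of all genes. Medians lie between 0.28 and 0.69 on the left and between -0.05 and 0.31 on the right. The H4 medians count H4C14 and H4C15, which are 1 measurement, separately.

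Many H2A and H2B genes lie side by side on opposite strands with their starts facing apart, and 9 such pairs, with fewer than 500 bases between the genes, were among the members. Only signs and sizes are given for them, and the difference between partners was not tested. With 4 arrays the 2 genes of a pair were both above 0 in 6 pairs, both below 0 in 2 and of opposite sign in 1. Against replicate 1 the difference of the H2A gene, sign included, was higher than that of its H2B partner in 7 of 9 pairs. H2AC13 and H2BC13 stood at 1.01 and 0.28, H2AC14 and H2BC14 at 0.86 and 0.32, and H2AC20 and H2BC21 at 0.69 and 0.11. The H2B gene was the higher in the pair of H2AC6 and H2BC4, at 0.25 and 1.04, and in that of H2AC1 and H2BC1. Against replicate 2 the H2A gene was the higher in 3 of 9 pairs. The pair of H2AC1 and H2BC1, which lies apart from the other chromosome 6 genes and is known for expression in testis, was below 0 in each comparison, at -0.24 and -0.17 against replicate 1 and -0.44 and -0.33 against replicate 2. None of these 4 values passed.

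**Figure D3:**
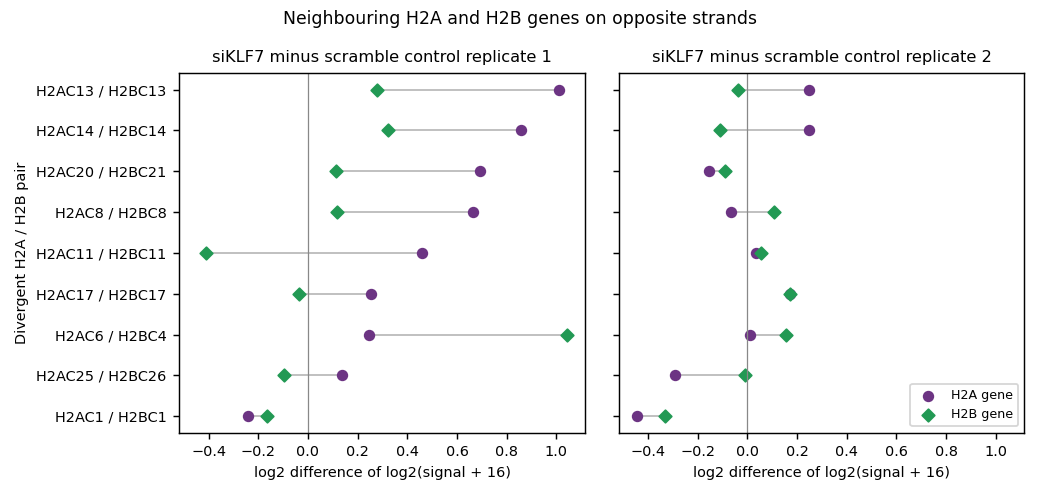
Log2 difference of the H2A gene (circle) and the H2B gene (diamond) of 9 neighbouring pairs, siKLF7 minus scramble control replicate 1 (left) or replicate 2 (right), with a grey line joining the partners. On the left the H2A gene is the higher in 7 pairs, and on the right in 3.

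By position in the RefSeq table, 48 members were on chromosome 6, 8 on chromosome 1 and 1 on chromosome 12. The 13 genes of the chromosome 6 block from H2BC13 to H2BC17 had a median difference of 0.31 with 4 arrays. Of these, 13 of 13 were above 0, beside 41.8% of all genes. The median was 0.56 against replicate 1 and 0.17 against replicate 2, where 8 of 13 were above 0, beside 42.2% of all genes. Replicate 1 was the lowest array for 12 of the 13. The 30 genes from H2AC1 to H4C8 had a median of 0.23 with 4 arrays, with 27 of 30 above 0. Their median was 0.30 against replicate 1 and 0.08 against replicate 2, where 19 of 30 were above 0. The 5 genes from H2BC11 to H2AC12 had the lowest median of the chromosome 6 blocks with 4 arrays, 0.15, with 4 of 5 above 0. The median of these 5 was 0.31 against replicate 1, where 3 were above 0, and 0.06 against replicate 2, where 4 were above 0. In the chromosome 1 block of 6 genes from H4C14 to H2AC21 the median was 0.36 with 4 arrays, 0.77 against replicate 1 and -0.12 against replicate 2. With H4C14 and H4C15 counted once, the median of this block against replicate 1 would be 0.69, the value of H2AC20. Both H2AC25 and H2BC26, the separate chromosome 1 pair, lay below 0 with 4 arrays.

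Genes that make and process histone mRNA had smaller median differences with 4 arrays than the histone genes, which was not tested. Of 23 measured genes of histone transcription and 3′ end processing, 0 passed with 4 arrays or against scramble control replicate 2, and 3 of 23 rose against replicate 1, a share near the 13.4% of all genes that rose there. The 3 genes were TUT7, a terminal uridylyltransferase, by 0.58, LSM10, a subunit of the U7 particle, by 0.57, and CPSF2, a subunit of the cleavage complex, by 0.55. The list median was 0.04 with 4 arrays, 0.08 against replicate 2 and 0.07 against replicate 1. SLBP stood at 10.13 and 10.01 in siKLF7 arrays, against 9.96 and 10.05 in the controls, and NPAT at 9.43 and 9.10, against 9.56 and 9.03. Neither gene's groups were apart. CPSF3, the endonuclease, and CSTF3 stood at 0.26 and 0.24 with 4 arrays. Histone variants listed as replication-independent, H2AX included, had a median of 0.06 with 4 arrays over 12 genes. H2AZ1 stood at 0.29 against replicate 1. MACROH2A2 and H2AP stood at 0.21 and -0.12 with 4 arrays.

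The S phase and DNA replication list, 40 genes, had a median of 0.20 with 4 arrays, 0.14 against replicate 2 and 0.09 against replicate 1. CCNE2, a cyclin E partner of CDK2, stood at 8.68 and 8.56 in siKLF7 arrays, against 7.22 and 7.96 in the controls. It rose against either control, by 0.66 against replicate 2 (SE 0.16, adjusted p = 0.0124) and 1.40 against replicate 1 (SE 0.16, adjusted p = 8.89e-12), and was the only gene of the list that passed against replicate 2. Against replicate 1, where 13.4% of all genes rose and 13.4% fell, 10 of 40 rose: CCNE2, TYMS by 1.17, CDC6 by 1.07, GINS4, PCNA, RFC2, RFC4, MCM6, PRIM1 and TK1. Another 4 of the 40 fell, a share below that of all genes: CDK2 by 0.61, CCNE1 by 0.59, GINS3 by 0.45 and PRIM2 by 0.44. Scramble control replicate 1 was the lowest array for 18 of the 40, beside 31.4% of all genes, and the highest for 14, beside 38.3%. It was the lowest for 41 of the 57 histone genes, and the difference between the 2 lists was not tested. Mitotic genes had the other order of medians, 0.02 against replicate 1 and 0.40 against replicate 2, where 9 of 20 rose, beside 0.885% of all genes: CCNB1, CCNB2, CDK1, TTK, TOP2A, KIF11, CENPE, CENPF and NUSAP1, by 0.56 to 0.68. Against replicate 1, CCNB2 and NUSAP1 rose by 0.47 and 0.46 and BIRC5 fell by 0.45.

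**Figure D4:**
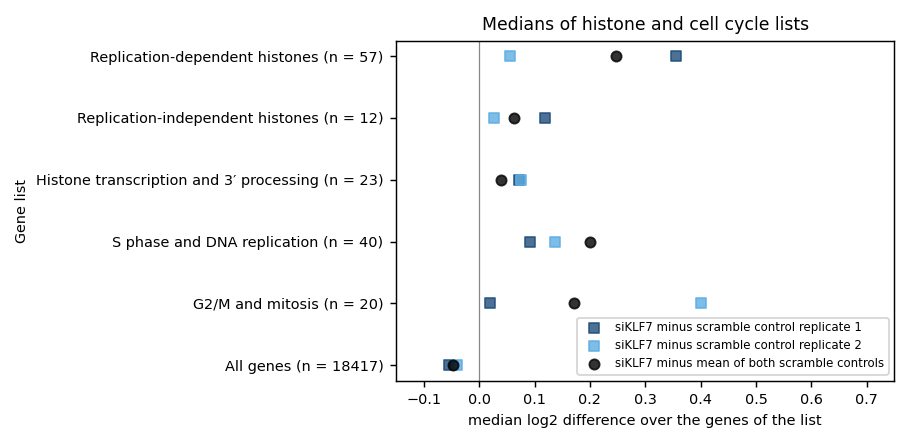
Median log2 difference over the genes of each list, siKLF7 minus scramble control replicate 1 (dark squares), replicate 2 (light squares) or the mean of both (circles). Replication-dependent histones stand at 0.36 against replicate 1 and 0.06 against replicate 2, and mitotic genes at 0.02 and 0.40.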

How the data were processed

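The deposited intensity of each feature, on a linear scale, came from the authors' run of PLIER 2.0 in Affymetrix Expression Console 1.1.1, per the submitters' processing notes. Any normalization between arrays is not stated there. Of 33297 features, 19460 had 1 gene symbol in the platform annotation. The feature with the highest mean was taken per gene, and each histone gene had 1. The median signal was 190 and 185 in siKLF7 and 187 and 194 in scramble control arrays. Groups came from the sample titles.

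Values were taken as log2(signal + 16), and limma 3.58.1 (R 4.3.3; lmFit, then eBayes with a trend on level) was fitted over 18417 genes, with Benjamini-Hochberg adjustment and a threshold of 0.05. Fits had 2 residual degrees of freedom with 4 arrays and 1 with 3, and 2.63 prior degrees of freedom with 4 arrays against 74.2 without scramble control replicate 1 and 86.2 without replicate 2. The number of arrays limits the precision, and the pseudocount shrinks changes of dim genes.

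The members and lists were chosen with earlier results of these data known. Values on every array are given for all H1 genes, for members past the threshold in any fit, and in each other class for the 3 smallest p, the smallest p without scramble control replicate 1 and the lowest and highest difference. The same rule served for the other lists, except that SLBP and NPAT were named outside it. Array values there are given only for CCNE2, SLBP and NPAT. Marker lists are given as counts and summed signals, with levels for a few markers chosen outside the rule. Alternatives were another normalization, filter, prior, pseudocount, feature rule, replicate block and each array left out. Gene positions and promoters came from RefSeq GRCh38.p14, and 57 members matched by gene ID. Figures were drawn with matplotlib 3.10.9.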

Additional observations from a re-analysis of the deposited data

How the results depend on the processing

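With 4 arrays, 0 genes and 0 histone genes passed under quantile normalization, median centring, the filters on dim genes, pseudocounts of 1 and 32, eBayes without the trend, a robust prior, averaged features per gene and the replicate block. Over these settings the histone median stayed between 0.25 and 0.28. It was 0.25 with H4C14 and H4C15 counted once, a setting chosen after seeing the data. The filters kept 54 and 47 of the 57 members. H1-4 turned to -0.0105 with quantile normalization, and no other named histone gene changed sign under a setting that kept all 4 arrays. With the replicate number as a block the histone median was 0.25 and KLF7 stood at -1.50 (limma adjusted p = 0.735). Same-numbered arrays did not deviate together across all genes (r = -0.041). Across the histone genes they tended to deviate in opposite directions (r = -0.498).

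Leaving out single arrays decided the results. The count of genes past the threshold ranged from 0 to 4935, with 290 without scramble control replicate 1, 4935 without scramble control replicate 2 and 0 without either siKLF7 array. The count of histone genes ranged from 0 to 31, with 2 and 31 without control replicates 1 and 2. KLF7 ranged from -1.83 to -1.16, and passed without control replicate 1 (adjusted p = 1.2e-09) or 2 (4.95e-23). The histone median ranged from 0.06 to 0.36, and that of class H4, with H4C14 and H4C15 counted separately, from -0.049 to 0.69. Of 39 named members, 17 changed sign when 1 array was left out. Their ranges were -0.14 to 0.50 for H1-2, -0.016 to 0.062 for H1-4, -0.29 to 0.90 for H2AC15, -0.0007 to 0.56 for H2AC16, -0.16 to 0.69 for H2AC20, -0.067 to 0.67 for H2AC8, -0.19 to 1.03 for H2BC10 and -0.41 to 0.056 for H2BC11. They were -0.11 to 0.32 for H2BC14, -0.011 to 0.41 for H2BC5, -0.016 to 0.60 for H3C10, -0.11 to 0.71 for H3C2, -0.17 to 0.89 for H4C14 and H4C15, -0.10 to 1.09 for H4C2, -0.049 to 0.92 for H4C3 and -0.18 to 1.44 for H4C8. The cause was not tested.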

Other observations

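Further histone copies were read only by probe sets that list several histone symbols, and these were left out of the comparisons above. There were 19 such probe sets with 16 distinct sets of values. Their median log2 difference was 0.23 with 4 arrays, with 17 of 19 above 0 and a range of -0.02 to 0.55. The median was 0.27 (16 above 0, highest 0.96) when set against scramble control replicate 1 and 0.15 (13 above 0, highest 0.39) when set against replicate 2.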
